A study of Rattus norvegicus with 48 samples.

Results

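Levels of miR-103-3p and miR-107-3p were followed in the blood plasma of rats during the regeneration of a bone defect of the skull. These 2 mature miRNAs, named rno-miR-103-3p and rno-miR-107-3p in the deposited counts, were taken by name from 645 miRNAs, not by a rule on their values. Earlier results of these data were known when they were chosen. The 12 male Sprague-Dawley rats were of a single age at surgery, and each had a central circular defect drilled in the calvaria, the roof of the skull. Their defects were left empty, filled with a collagen-hydroxyapatite (CHA) scaffold alone, filled with a scaffold that carried a plasmid for BMP2 and miR-590-5p, or filled with a scaffold that carried extracellular vesicles (EVs) of mesenchymal stromal cells (MSC). The labels do not tie a rat to one of these treatments, so treatment is not a term of any comparison. By bone volume in microcomputed tomography, 6 rats were chosen as strong ("good") and 6 as weak ("bad") regenerators from a larger experiment, which makes them extremes and not a random sample of it. By the paper's account, treatments were uneven between these groups. Scaffold alone occurred only among strong regenerators, and the plasmid mostly among weak ones. Regeneration and treatment can thus not be fully told apart when strong and weak regenerators are compared. Each rat gave plasma 4 times, at baseline (week 0, shortly before the defect was made) and then at weeks 1, 4 and 8 of healing. The 48 samples thus fell into 8 sets of 6 rats. The regeneration group of a baseline sample, unknown in its label, was taken from the same rat. Total miRNA counts ranged from 393259 to 1586398 per sample, and their median was 943250 over the earlier time points and 609384 at week 8. The lowest count of either member in a sample was 1769, so both were far above the range where single reads decide a level.

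MicroRNAs are short RNAs that guide Argonaute proteins to messenger RNAs, mostly through pairing of the seed, the bases at positions 2 to 8. The genes of miR-103 and miR-107 lie in introns of the pantothenate kinase genes, whose enzymes catalyse the first step of coenzyme A synthesis, and both miRNAs are known for roles in insulin signalling and in the control of Dicer, the enzyme that cuts miRNA precursors. In plasma and serum assays, miR-103-3p (often called miR-103a-3p) is in common use as a reference against which other miRNAs are expressed. A reference of this kind has to stay level across the samples compared.

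The mature sequences show how close the pair is, and they are given first because the counts of the members rest on telling them apart. Capitals mark the only base at which they differ (RefSeq sequences, written 5′ to 3′).
miR-103-3p: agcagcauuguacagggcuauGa
miR-107-3p: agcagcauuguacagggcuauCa
Both have 23 bases and are identical over the first 21 bases. The single difference is G22C, counted from 1 at the 5′ end with the base of miR-103-3p first, which leaves 95.7% identity. A read that ends before base 22 has the same sequence for both members. The authors allowed a mismatch when reads were assigned to miRBase. A full-length read of either member was therefore also within what was allowed for the other. Whether reads of either kind were divided between the members or counted for both was not tested. Read lengths were not analysed here, so the split between the members is uncertain, and their sum is given beside it. A read counted for both members would enter that sum more than once.

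The shared seed, marked here in capitals, sets the pair apart from the other miRNAs of the rat.
miR-103-3p: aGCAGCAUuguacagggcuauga
miR-107-3p: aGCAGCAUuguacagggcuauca
Of 693 mature miRNAs with a RefSeq sequence, only these 2 carry it. The 7 letters AGCAGCA, with which both members start, stand 1 base further in at positions 2 to 8 in 5 relatives of the miR-15/16 family, where they are the seed.
miR-15b-5p: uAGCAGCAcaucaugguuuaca
miR-16-5p: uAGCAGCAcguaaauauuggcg
miR-195-5p: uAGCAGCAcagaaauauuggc
miR-322-5p: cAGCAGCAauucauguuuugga
miR-497-5p: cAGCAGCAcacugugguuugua
The mature miR-503-5p (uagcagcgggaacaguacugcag) does not hold these letters. The list of relatives also held miR-15a-5p.

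In the rat genome (build GRCr8), mature miR-103-3p is annotated at chr3:138963278-138963300 on the plus strand, within the hairpin Mir103a2 at chr3:138963227-138963312, which lies inside the gene Pank2. A second hairpin with the same mature sequence, Mir103a1, lies inside Pank3 at chr10:20748474-20748559 on the plus strand. Mature miR-107-3p lies at chr1:241750431-241750453 on the minus strand, within the hairpin Mir107 at chr1:241750418-241750504 inside Pank1. The 3 hairpins are shown with the 3p arm in capitals, because a read of the 3p arm cannot tell the first 2 apart while the rest of these hairpins differs.
Mir103a2: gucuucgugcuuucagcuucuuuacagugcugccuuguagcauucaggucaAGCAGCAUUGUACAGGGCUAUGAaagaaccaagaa
Mir103a1: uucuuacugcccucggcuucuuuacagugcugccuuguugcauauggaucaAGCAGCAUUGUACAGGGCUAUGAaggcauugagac
Mir107: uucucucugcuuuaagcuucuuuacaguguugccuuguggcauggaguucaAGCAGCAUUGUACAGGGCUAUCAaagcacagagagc
The 5p arms of these hairpins were almost absent from plasma. Over all 48 samples, miR-103-3p had 388677 reads and miR-107-3p had 163047, against 85 reads of miR-103-1-5p, 17 of miR-103-2-5p and 28 of miR-107-5p. The arm miR-103-1-5p was found in 34 samples with at most 8 reads, miR-107-5p in 20 with at most 4, and miR-103-2-5p in 12 with at most 3. These counts are too low to say from which of its hairpins the plasma miR-103-3p came.

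Levels are given as RPM, the reads of a miRNA scaled to a fixed total of miRNA reads in every sample. An RPM is a share, so more of 1 miRNA and less of the others cannot be told apart by it. At baseline, miR-103-3p was between 6183 and 11268 RPM with a median of 7684, at week 1 between 6480 and 10892 with a median of 8806, and at week 4 between 6517 and 10740 with a median of 7966. These 3 ranges overlapped almost wholly. At week 8, miR-103-3p was between 12663 and 18949 RPM, with a median of 15654. All 12 samples of week 8 lay above all 36 earlier samples, the highest of which was the baseline of strong regenerator 5. The baseline mean of 7973 ± 1295 RPM was followed by 8754 ± 1480 at week 1, 8122 ± 1171 at week 4 and, after the last interval, 15939 ± 1941 at week 8 (SD, n = 12 rats). By mean level, miR-103-3p ranked 28th, 23rd and 27th among 645 miRNAs before week 8 and 14th at week 8, when it took 1.59% of the miRNA reads against 0.797% at baseline.

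The level of miR-107-3p moved little by comparison. It was between 3181 and 4965 RPM at baseline (median 3612), between 3279 and 5679 at week 1 (median 4195), between 3157 and 5195 at week 4 (median 4153) and between 3476 and 6309 at week 8 (median 4281). The ranges of all 4 time points overlapped, and 2 of the 12 samples of week 8 lay above all earlier samples. The means were 3724 ± 497, 4168 ± 664, 4036 ± 649 and 4577 ± 1014 RPM (SD, n = 12), with the widest spread at week 8. By mean level, miR-107-3p ranked 45th, 43rd and 45th before week 8 and 38th at week 8.

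**Figure D1:**
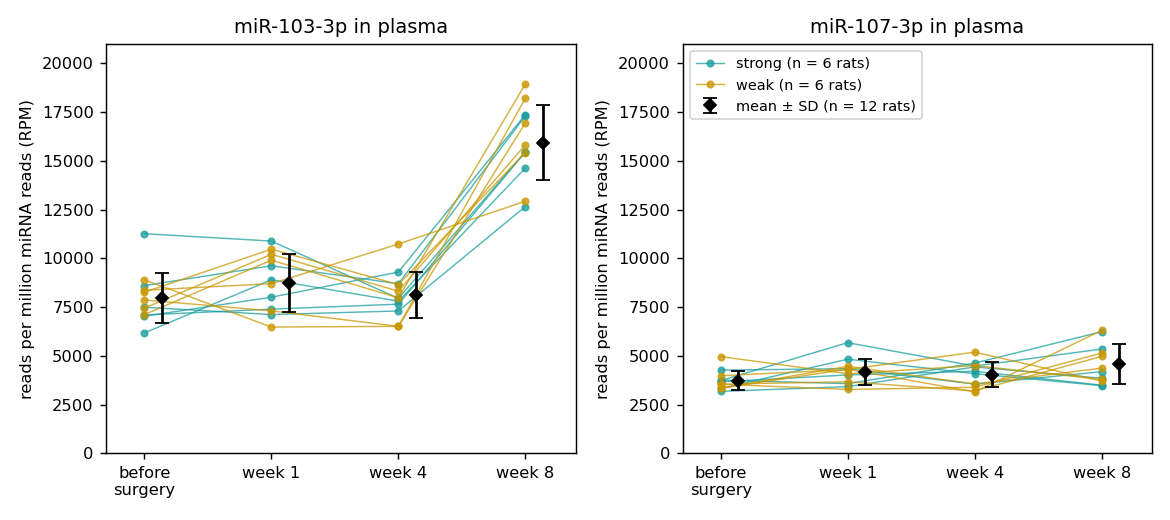
Level of miR-103-3p (left) and miR-107-3p (right) in plasma, in RPM, before surgery and at weeks 1, 4 and 8. Each line is a rat, coloured by regeneration group, and the diamonds with bars are the mean and SD of 12 rats. The week 8 values of miR-103-3p, from 12663 to 18949 RPM, lie above all earlier ones, while those of miR-107-3p, from 3476 to 6309 RPM, overlap with them. Scaled to UniSp2 reads in place of miRNA reads, both were lower at week 8.

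The first question of the study was which circulating miRNAs change against baseline. Each week was compared with baseline by edgeR's quasi-likelihood test on the counts of all 48 samples after TMM scaling, with adjustment over all miRNAs tested (FDR) and calls at an FDR under 0.05. At week 8 both members were higher than at baseline on this scale, and both were lower on the scale of the UniSp2 spike-in described below. miR-103-3p was 2.12-fold higher with TMM (log2 fold change 1.08, SE 0.11, FDR = 4.2e-12), and it was higher in 12 of 12 rats. Within a rat, the level at week 8 was between 1.37-fold (strong regenerator 5) and 2.66-fold (weak regenerator 7) that at baseline. miR-107-3p was 1.31-fold higher with TMM (log2 fold change 0.38, SE 0.11, FDR = 0.00346), and it was higher in 8 of 12 rats. Its change within a rat ran from 0.765-fold in weak regenerator 25 to 1.89-fold in weak regenerator 7. Counts of rats with a higher miRNA level and changes within a rat, here and below, compare RPM and not TMM-scaled values. Both members were thus called at week 8, where the background was 40.3% of the 620 miRNAs tested, 88 of them higher and 162 lower. Among the 310 miRNAs with a mean of at least 10 RPM, whose median log2 fold change was -0.12, the increase of miR-103-3p ranked 17th and that of miR-107-3p ranked 85th.

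Between the 2 last samplings, weeks 4 and 8, miR-103-3p rose in 12 of 12 rats relative to the other miRNAs (log2 fold change 0.96, SE 0.11, FDR = 2.3e-10). miR-107-3p was not called in this step, with a log2 fold change of 0.17 (SE 0.11, FDR = 0.218, higher in 7 of 12 rats). In this comparison 40.0% of 532 miRNAs were called. Of the 3 listed 5p arms, which had at most 8 reads in a sample, 1 was called higher. In an edgeR fit with the rat as a block, 210 of 532 miRNAs were called. There miR-103-1-5p was higher (log2 fold change 2.47, FDR = 0.00116) and miR-103-2-5p was not called (-1.28, FDR = 0.326). Taken as 1 feature in an alternative chosen after seeing the data, the 2 members summed were 1.88-fold higher at week 8 than at baseline (log2 fold change 0.91, SE 0.11, FDR = 3.2e-10), while their summed reads per UniSp2 read had a median of 0.336 at baseline and 0.171 at week 8. All 12 sums of week 8, from 16162 to 25258 RPM, lay above all 36 earlier sums, of which the highest was 15539. This change of the sum does not depend on how reads were divided between the members. It could depend on reads counted for both, which was not tested.

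Neither member was called at the earlier weeks. At week 1, the log2 fold change was 0.24 for miR-103-3p (SE 0.11, FDR = 0.0957, higher in 8 of 12 rats) and 0.27 for miR-107-3p (SE 0.11, FDR = 0.0721, 9 rats), in a comparison in which 21.6% of 232 miRNAs were called. At week 4, it was 0.12 (FDR = 0.555, 8 rats) and 0.22 (FDR = 0.289, 7 rats), with 4.19% of 645 miRNAs called. The week 4 value of miR-103-3p was 0.061 without rat 23, 0.072 without rat 17 and 0.027 with library size alone. Between weeks 1 and 4, it was -0.12 (FDR = 0.657) and -0.052 (FDR = 0.920). In that last comparison edgeR called 0 of 645 miRNAs (0%), and 79 had an unadjusted p under 0.05, while the edgeR fit with the rat as a block called 4 miRNAs and neither member. The comparisons with baseline share the same 12 baseline samples.

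The direction at week 8 depended on what the reads were related to. The study added a mix of synthetic RNAs, with UniSp2 the most abundant, to every plasma lysate. UniSp2 gave 91.1 to 144 reads per 1000 miRNA reads at week 8 and 23.3 to 60.4 at the earlier time points. The paper, from 3 spike-ins that include UniSp2, describes the efficiency of RNA isolation as comparable between its samples. Only UniSp2 was used as a scale here. Per UniSp2 read, the median for miR-103-3p was 0.226 reads at baseline, followed by 0.228, 0.188 and 0.133 at the later samplings, and the values of week 8 (0.0915 to 0.172) overlapped with the lowest earlier ones. Per UniSp2 read, miR-107-3p had medians of 0.109, 0.101, 0.0933 and 0.0374, and all 12 samples of week 8 (0.0253 to 0.0506) lay below the lowest earlier value of 0.0742. With UniSp2 reads as the scale of the edgeR fit, the log2 fold change at week 8 was therefore -0.87 for miR-103-3p (FDR = 2.9e-06) and -1.57 for miR-107-3p (FDR = 5.7e-15). On that scale the 310 abundant miRNAs had a median of -2.01, 499 of 645 miRNAs were called and 498 of these were lower. Relative to this median, miR-103-3p lay 1.14 higher and miR-107-3p 0.44 higher on the log2 scale, against 1.20 and 0.51 with TMM. A lower amount of plasma miRNA and a higher yield of the spike-in cannot be told apart here, nor can time and any batch that the 12 samples of week 8 share. Every rat had a defect, so healing, age and repeated sampling under anaesthesia cannot be told apart either.

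**Figure D2:**
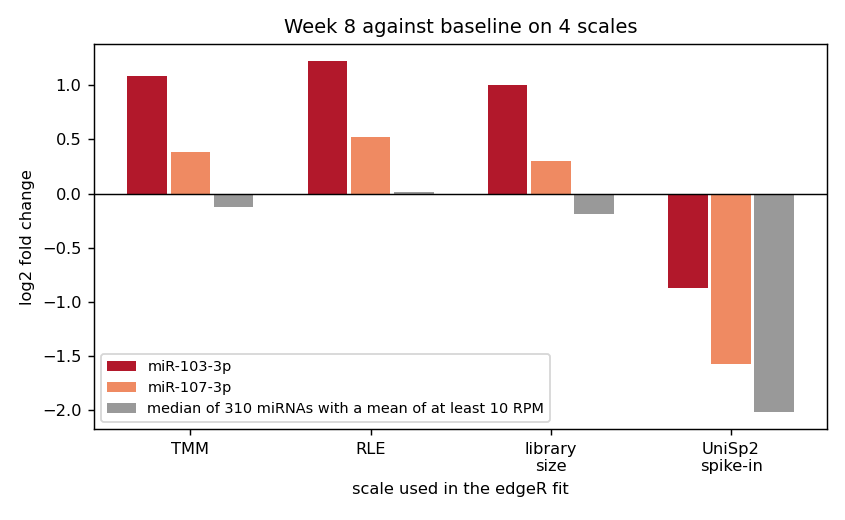
Log2 fold change of miR-103-3p, miR-107-3p and the median of 310 miRNAs with a mean of at least 10 RPM at week 8 against baseline, with 4 scales in the edgeR fit. Both members are above 0 with TMM, RLE and library size and below 0 with UniSp2, while on each scale miR-103-3p lies above miR-107-3p and both lie above the median.

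The ratio of the members within a sample is free of every such scale. For each read of miR-107-3p there were 2.15 ± 0.271 reads of miR-103-3p at baseline, then 2.11 ± 0.259 and 2.04 ± 0.279, and at week 8 there were 3.56 ± 0.434 (SD, n = 12). The ratio lay between 2.79 and 4.21 at week 8 and between 1.67 and 2.64 in the 36 earlier samples, so the groups did not overlap. As a share, miR-103-3p made up 68.0% ± 2.77, 67.6% ± 2.75, 66.8% ± 2.98 and 77.9% ± 2.16 of the reads of both. The widest 95% Wilson interval of this share in a sample reached 1.31 percentage points to either side, which covers counting error only. Against baseline, the ratio was 1.66-fold higher at week 8 (mean log2 difference 0.73, SD 0.24, higher in 12 of 12 rats). An exact two-sided sign-flip test over the rats gave p = 0.000488, the smallest that 12 rats allow, and an adjusted p of 0.00269 over 11 tests of the ratio. Between weeks 4 and 8 the ratio rose 1.75-fold, again in 12 of 12 rats (mean log2 difference 0.81, same exact test, p = 0.000488, adjusted p = 0.00269). At week 1 the mean log2 difference from baseline was -0.026 (SD 0.24, exact p = 0.712, adjusted p = 0.937) and at week 4 it was -0.080 (SD 0.27, exact p = 0.323, adjusted p = 0.593), each higher in 5 of 12 rats.

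**Figure D3:**
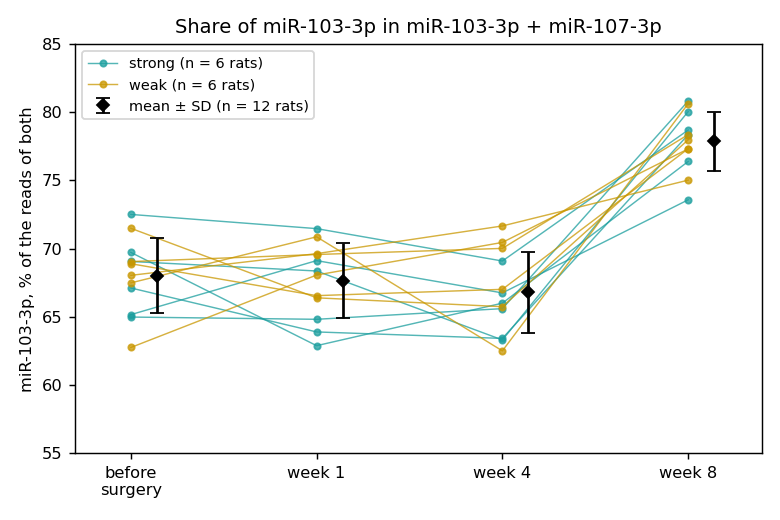
Share of miR-103-3p in the reads of miR-103-3p and miR-107-3p, in percent, before surgery and at weeks 1, 4 and 8. Each line is a rat and the diamonds with bars are the mean and SD of 12 rats; the axis starts at 55%. The 12 samples of week 8 lie between 73.6% and 80.8%, above the earlier range of 62.5% to 72.5%.

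Ratios of other close pairs moved at week 8 too. Among the abundant miRNAs, 13 pairs of equal length differed by 1 base and had reads of both in every sample (a rule chosen after seeing the data), and the ratio of the more to the less abundant one was taken. By the size of the change from baseline to week 8, miR-103-3p to miR-107-3p ranked 6th of the 13 with 0.73 on the log2 scale. Larger changes were seen for miR-196b-5p to miR-196a-5p (1.34, with a wide SD of 1.23), miR-29a-3p to miR-29c-3p (-1.28), miR-181b-5p to miR-181d-5p (-0.87), miR-30a-5p to miR-30e-5p (0.80) and, barely, miR-27b-3p to miR-27a-3p (0.73). The only other pair that differed at position 22, miR-133a-3p to miR-133b-3p (G22A), had a change of 0.19 (SD 0.77, higher in 9 of 12 rats). A shift of this size between near-identical miRNAs was thus not particular to the members.

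The second question of the study was how strong and weak regenerators differ. At week 8 miR-103-3p was between 12663 and 17381 RPM in strong regenerators (median 15469, mean 15490 ± 1767) and between 12938 and 18949 in weak regenerators (median 16394, mean 16389 ± 2163, SD, n = 6 rats each). At baseline it was at 7949 ± 1807 RPM in strong and 7997 ± 652 in weak regenerators. The 2 groups overlapped at every time point, as did those of miR-107-3p, which was at 4435 ± 1122 RPM in strong and 4718 ± 976 in weak regenerators at week 8. Over all time points, the edgeR fit gave a log2 difference of strong minus weak of -0.081 for miR-103-3p (SE 0.076, FDR = 0.758) and of -0.034 for miR-107-3p (SE 0.079, FDR = 0.911), and the sign of each turned under an alternative. The fit treats the 4 samples of a rat as independent. In this comparison edgeR called 0 of 645 miRNAs (0%), and DESeq2 and limma-voom also called 0. With the 3 tools, 64, 41 and 32 miRNAs lay below an unadjusted p of 0.05. The paper, by contrast, reports miR-133a-3p and miR-375-3p as different over all time points at an FDR under 0.05, and already at baseline. Why the calls differ was not tested.

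Within the single weeks the members were not called either. At week 8 the log2 difference of strong minus weak was -0.23 for miR-103-3p (SE 0.16, FDR = 0.801) and -0.25 for miR-107-3p (SE 0.16, FDR = 0.801) by edgeR. Of 645 miRNAs, edgeR called 1 at week 8 (0.155%, 35 at an unadjusted p under 0.05) and 0 at baseline, week 1 and week 4 (42, 32 and 25 at an unadjusted p under 0.05). On the RPM scale, the log2 differences at week 8 were smaller, at -0.079 for miR-103-3p (SE 0.11) and -0.10 for miR-107-3p (SE 0.18), and that of miR-107-3p at week 4 was 0.16 (SE 0.13). On that scale, exact permutation tests over the 12 rats gave an adjusted p of 0.903 for both members at every time point and over all of them (10 tests). The ratio of the members differed between strong and weak regenerators by -0.057 on the log2 scale over all time points (SE 0.053, exact permutation test over 12 rats, p = 0.312, adjusted p = 0.593) and by 0.021 at week 8 (SE 0.11, exact p = 0.851, adjusted p = 0.937).

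The increase at week 8 with TMM scaling was seen in both regeneration groups, with rats again counted by RPM. miR-103-3p rose in 6 of 6 strong (log2 fold change 0.97, SE 0.16, edgeR FDR = 2.2e-06) and in 6 of 6 weak regenerators (1.18, SE 0.16, FDR = 5.2e-08). For miR-107-3p the log2 fold change was 0.28 in strong (SE 0.16, edgeR FDR = 0.185, higher in 4 of 6 rats) and 0.48 in weak regenerators (SE 0.16, edgeR FDR = 0.0162, higher in 4 of 6 rats). That 1 group passed the threshold and the other did not is no difference between them. The time courses of the 2 groups were not called different for miR-103-3p (edgeR interaction, FDR = 1) or for miR-107-3p (FDR = 0.985), a test in which edgeR called 0 of 645 miRNAs (30 at an unadjusted p under 0.05). The rise of the ratio at week 8 differed by 0.012 on the log2 scale between the groups (SE 0.15, exact permutation p = 0.937).

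The steadiness asked of a reference was described by the SD of log2(RPM + 1). Over all 48 samples, this SD was 0.47 for miR-103-3p and 0.25 for miR-107-3p, which ranked 88th and 14th from the steadiest among 310 abundant miRNAs with a median of 0.60. Over the 36 samples before week 8, it was 0.23 and 0.22, and both were among the steadiest, at ranks 16 and 14. Of 10 other miRNAs in common use as plasma references, 7 were steadier than miR-103-3p over 48 samples and 3 over the 36 samples before week 8. Against miR-107-3p, 3 were steadier in either set. The steadiest of all abundant miRNAs on the RPM scale was the reference miR-191a-5p, with an SD of 0.19 over 48 samples and 0.15 before week 8. These ranks depended on the scale. With TMM-scaled values, miR-191a-5p ranked 4th over 48 samples and 11th before week 8 (SD 0.25 and 0.24), miR-103-3p had an SD of 0.49 over 48 samples and ranked 12th before week 8 (SD 0.24), and miR-107-3p ranked 15th and 4th (0.27 and 0.21). In RPM, miR-191a-5p lay between 37934 and 71357 over the 48 samples.

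**Figure D4:**
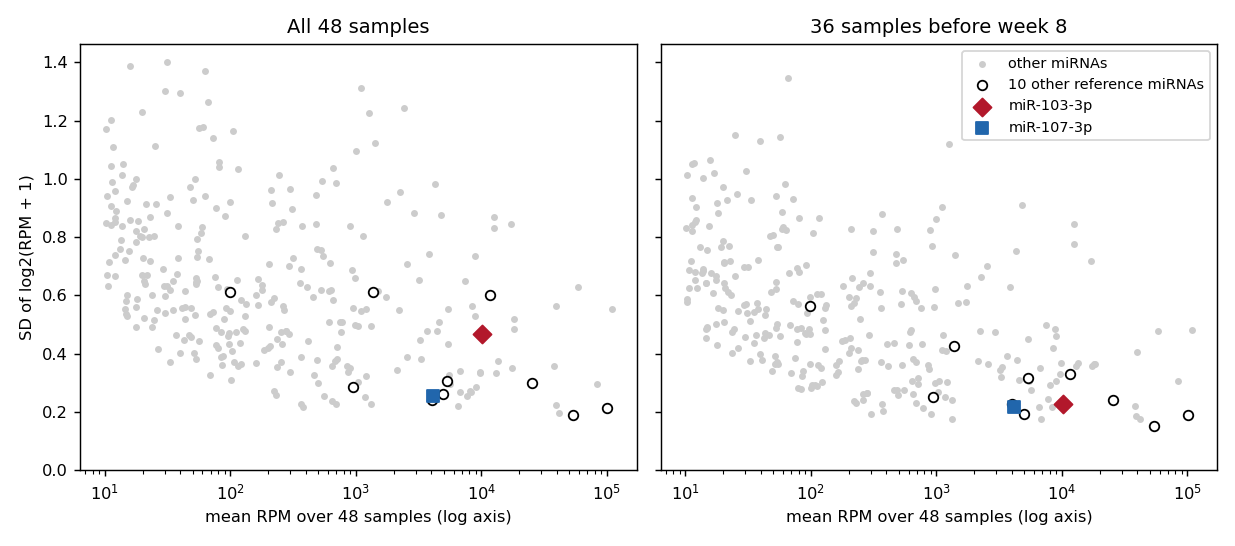
SD of log2(RPM + 1) against the mean level (log axis) of each of 310 miRNAs with a mean of at least 10 RPM, over all 48 samples (left) and over the 36 samples before week 8 (right). The point of miR-103-3p drops from 0.47 to 0.23 when week 8 is left out, while miR-107-3p stays at 0.25 and 0.22; open circles are the 10 other reference miRNAs.

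Among these 10 references, 4 were called higher and 2 lower at week 8, where 40.3% of all miRNAs tested were called. Their median log2 fold change was 0.054, against -0.0094 with library size alone (4 higher and 3 lower) and 0.19 with RLE. The increase of miR-103-3p was larger than that of each of them. The highest was miR-93-5p, a member of the miR-106b/25 cluster, at 0.66 (FDR = 1.2e-05), followed by miR-425-5p at 0.49, miR-423-3p at 0.40 and miR-423-5p at 0.35. The 2 lower ones were miR-30e-5p at -1.10 (edgeR FDR = 2.6e-07) and let-7i-5p at -0.97 (FDR = 6.8e-06). Not called were let-7a-5p at 0.074, miR-191a-5p at 0.034, miR-16-5p at -0.093 and miR-484 at -0.19. With UniSp2 as the scale, all 10 were called lower. At week 1, 1 of the 10 was higher and 0 were lower, and at week 4 edgeR called 0 of them (4 at an unadjusted p under 0.05) and DESeq2 1.

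Of the 7 miR-15/16 relatives that hold the start of the members' sequence or belong to its family, 1 was called higher and 3 lower at week 8, where 40.3% of all miRNAs tested were called, with a median log2 fold change of -0.86. The higher one was miR-15a-5p at 0.48 (FDR = 0.000535). The lower ones were miR-15b-5p at -1.05, miR-322-5p at -1.59 and miR-503-5p at -2.22. Not called were miR-497-5p at 0.18, miR-16-5p at -0.093 and miR-195-5p at -0.86 (FDR = 0.0691). With the rat as a block, miR-195-5p was called lower (-1.07, edgeR FDR = 0.0185), and 4 relatives were called lower in that fit, with library size alone and with limma-voom. With UniSp2 as the scale all 7 were called lower. At week 1, 2 of the relatives were called lower and miR-15a-5p was called higher (0.35, FDR = 0.0301), a call that was lost with library size alone, UniSp2 scaling, no filter and limma-voom (background 21.6%). At week 4, 2 were called lower (background 4.19%).

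**Figure D5:**
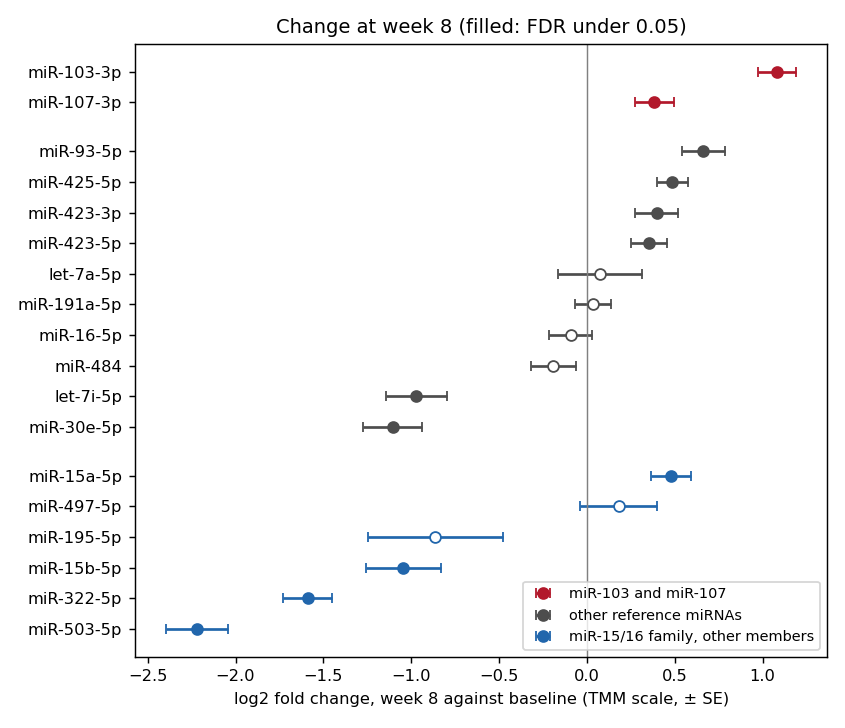
Log2 fold change at week 8 against baseline with its SE, from edgeR with TMM scaling, for the 2 members, 10 other reference miRNAs and the 6 further members of the miR-15/16 list; filled circles have an FDR under 0.05. miR-103-3p at 1.08 lies above all others shown, and miR-107-3p at 0.38 lies within the range of the references; with UniSp2 scaling all of them are below 0 at week 8.

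Division by a member shifts all other miRNAs by the member's own change, so the counts that follow restate the fold changes above in terms of calls and are no further result. With TMM, 250 miRNAs were called at week 8, 88 higher and 162 lower. With counts divided by the level of miR-103-3p in the same sample, 385 were called, 5 higher and 380 lower, and the median of the abundant miRNAs moved to -1.18 on the log2 scale. With miR-107-3p as the scale, 240 were called, 36 higher and 204 lower, and the median was -0.42. Scaled to both summed, 343 were called, 8 higher and 335 lower. At week 1, scaling to miR-103-3p gave 30 calls, 3 higher and 27 lower, where TMM gave 29 higher and 21 lower, and at week 4 it gave 29, all lower, where TMM gave 1 higher and 26 lower. Between strong and weak regenerators edgeR called 0 miRNAs with each of these scales.

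Blood cells are a known source of plasma miRNAs, so markers of red cells and platelets were followed beside the members. The 8 red cell miRNAs on the list, among them miR-451-5p and miR-486, took 26.6% to 37.0% of the miRNA reads at baseline, 28.2% to 48.6% at week 1, 30.1% to 48.4% at week 4 and 35.6% to 48.3% at week 8. Of these, 6 were called higher at week 1 (median log2 fold change 0.39), 0 at week 4 (edgeR, 5 at an unadjusted p under 0.05, median 0.30) and 5 at week 8 (median 0.44), when miR-144-3p was called lower, beside backgrounds of 21.6%, 4.19% and 40.3% of all miRNAs tested. The calls at week 1 depended on the fit, with 3 of the 8 called with filterByExpr, 1 with library size alone and 0 with no filter, with limma-voom (6 at an unadjusted p under 0.05 in each) and with UniSp2 scaling (0). The log2 fold changes of the 8 at week 8 ran from -0.41 to 1.15, a range that holds the 1.08 of miR-103-3p. With the rat as a block, miR-451-5p was at 1.06 and miR-144-3p at -0.43. At week 8, RLE and DESeq2 gave 6 higher and 0 lower, so that the call of miR-144-3p was lost. The ratio of miR-451-5p to miR-23a-3p, in use as a sign of haemolysis, had medians of 4.93, 6.70, 5.89 and 8.18 from baseline to week 8. The 7 platelet miRNAs took a median of 4.55% of reads at baseline and 4.02% at week 8, when 2 were called higher and 2 lower (median log2 fold change 0.12), against 3 higher and 2 lower with RLE or DESeq2 (0.27) and 1 higher and 2 lower with library size alone. With UniSp2 as the scale, all members of both lists were called lower at week 8. The part of these cells in the increase of miR-103-3p and miR-107-3p was not tested.

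Other miRNAs followed miR-103-3p more closely than its near-twin did. Over all 48 samples, which share the shift at week 8, the highest Pearson correlations of log2(RPM + 1) with miR-103-3p among 309 abundant miRNAs were those of miR-181c-5p (r = 0.89), miR-181d-5p (0.89) and miR-361-3p (0.88). miR-107-3p came 41st, with r = 0.59. The pattern of miR-107-3p was most like those of miR-362-3p (r = 0.79), miR-22-3p (0.67) and miR-21-3p (0.65), and miR-103-3p came 9th. After the mean of each week was subtracted, miR-107-3p was the miRNA most like miR-103-3p (r = 0.68), ahead of miR-181c-3p (0.57) and miR-1949 (0.56). For miR-107-3p it was then miR-362-3p (r = 0.77), followed by miR-103-3p (0.68) and miR-210-3p (0.67). Within time points the counts of the members therefore went together across samples, while over the time course they parted at week 8. Reads that could be assigned to either member, short or full-length, could add to the correlation between them if such reads were counted for both. Whether they were was not tested, so the r of 0.68 need not be that of separately measured miRNAs. These correlations are a description, since samples of the same rat and the scaling to a common total are shared by all miRNAs.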

How the data were processed

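Small RNA of plasma was sequenced after single-adapter ligation. The authors trimmed adapters with cutadapt 3.3, used Bowtie 1.3.0 and miRDeep2 for mapping to the genome and, in a next step, to rat entries of miRBase (the submitters' processing notes list a human build, the methods a rat build), and deposited raw counts without normalization for 645 miRNAs and 3 spike-ins. Spike-ins took 2.30% to 12.7% of counts and were left out of the miRNA total. Every sample column was mapped by its animal and time point.

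Counts were tested with edgeR 4.0.16 (R 4.3.3; quasi-likelihood method of edgeR version 3, TMM, Benjamini-Hochberg after an independent filter that follows DESeq2). The models held the time point, the time point and regeneration, or all 8 groups. The scripts were tested on simulated data. The ratio of the members was tested by exact sign flips (4096 patterns) or exact permutation of rats (924 splits), two-sided. RPM used a pseudocount of 1 on the log2 scale. Sequences and positions came from RefSeq (GRCr8) tables. Python 3.11.15 was used with pandas 2.3.3, numpy 2.4.6 and scipy 1.17.1, with plots by matplotlib 3.10.9.

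Same-numbered samples come from the same rat. For 72 pairs of samples from 1 rat, deviations from the group means correlated with a mean r of 0.107 (43 pairs over 0.1), against -0.0289 for pairs from different rats. The rat was a block in an alternative only, as the study's methods name no such term. Other alternatives were library size, RLE or UniSp2 scaling, no filter or filterByExpr, DESeq2 1.42.0, limma-voom (limma 3.58.1), fewer time points, summed samples and each rat left out. No pair of samples was a copy (chi-square per degree of freedom at least 16.4 over 1128 pairs).

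Named miRNAs are the members, their 5p arms, the lists of references, miR-15/16 relatives, red cell and platelet miRNAs, and for each member the 3 most alike; members of the 1-base pairs were named after their values were seen. The members and lists were chosen with earlier results of these data known. Reads, bone volumes and treatment groups were not analysed here.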

Additional observations from a re-analysis of the deposited data

How the results depend on the processing

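The increases of miR-103-3p and miR-107-3p at week 8 held with an FDR under 0.05 in every alternative on the counts except UniSp2 scaling. The rise of their ratio at week 8 kept its direction in each of its alternatives. Among these, the difference in RPM depends on the scale and can rise while the ratio stays level, so it does not bear on the ratio. Of 98 alternatives other than leaving out a rat, 86 kept direction and side of the threshold, as did 140 of 144 that left out 1 rat. The 98 include both members summed, set beside each member alone, and the difference in RPM, set beside the ratio. Neither estimates the same quantity as the value it is set beside. UniSp2 scaling turned the log2 fold change of miR-103-3p to -0.074, -0.24 and -0.87 and that of miR-107-3p to -0.049, -0.16 and -1.57 at weeks 1, 4 and 8; it moved the median of the abundant miRNAs to -0.32, -0.29 and -2.01, and RLE moved it at week 8 from -0.12 to 0.014. Between strong and weak regenerators, miR-103-3p turned to 0.026 with the samples of a rat summed, and miR-107-3p to 0.048 with summed samples, to 0.026 with library size alone and to 0.0030 and 0.018 without rat 7 or rat 29 (range -0.053 to 0.018). At week 1 the difference in RPM, which is not a ratio, was 337. For the ratio at week 1, the weak regenerators alone gave 0.035 (exact p = 0.781), and leaving out a rat gave -0.059 to 0.012, above 0 without rats 3 and 21. The cause was not tested in any of these. Scaling to miR-107-3p in place of miR-103-3p gave 240 calls at week 8 against 385. Library size alone gave 0.13 and 0.16 at week 1 and 0.027 and 0.12 at week 4 for miR-103-3p and miR-107-3p. Without 1 rat, miR-103-3p lay between 0.061 (rat 23) and 0.18 at week 4 and between -0.14 and -0.016 for strong against weak. Leaving out 1 rat gave log2 fold changes at week 8 of 1.06 to 1.23 for miR-103-3p and of 0.36 to 0.57 for miR-107-3p. With the rat as a replicate block, the log2 fold changes at week 8 were 1.08 (edgeR FDR = 3.2e-12) and 0.37 (FDR = 0.00789), and the block changed no call of either member; between weeks 1 and 4 it called 4 miRNAs against 0, and at week 8 it added miR-195-5p to the calls. Within strong or weak regenerators alone, the ratio at week 8 had an exact p of 0.0312, the smallest that 6 rats allow.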
